A study of Mus musculus with 6 samples.

Results

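The loci of miR-192, of miR-194 and of miR-215 were followed in mouse small intestinal organoids through 6 mature miRNAs, which are mmu-miR-215-5p, mmu-miR-215-3p, mmu-miR-194-1-3p, mmu-miR-194-5p, mmu-miR-192-5p and mmu-miR-194-2-3p. They were taken by name, as the arms of the hairpins Mir215, Mir194-1, Mir192 and Mir194-2 that have a row in the count table, and they make up 6 of its 199 entries. Crypts isolated from mouse intestine were grown as organoids, which are self-renewing epithelial cultures, in IntestiCult growth medium, and 3 libraries came from organoids given BMP4 at 0.5 µg/ml for 4 days and 3 from organoids given PBS as the control. All 6 libraries share the culture medium and the small RNA protocol, and for these libraries no source used here gives the genotype, strain or age of the mice. No label says whether replicate libraries stem from different cultures or animals. The p-values here weigh a group difference only against the spread of these 6 libraries, or against a relabelling of them. It is not known whether that spread holds more than technical variation. RNA was measured from whole organoids, in which fewer cells of a type and less RNA per cell cannot be told apart.

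A miRNA gene is transcribed as a hairpin, from which Drosha and Dicer release a duplex of a 5p and a 3p arm. One arm, the guide, is loaded into Argonaute and pairs with target mRNAs mainly through its seed, while the other arm is mostly degraded. These miRNAs are among the most abundant of the gut epithelium. BMP4 is a secreted ligand of the TGF-β superfamily that signals through SMAD1, SMAD5 and SMAD8, and BMP signalling is strongest toward the villus, where epithelial cells mature.

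The mature sequences show which arms could act on the same targets, so all 6 are given with the seed, bases 2 to 8 from the 5′ end, in capitals. The sequences are those of RefSeq for GRCm38.p6.
mmu-miR-215-5p: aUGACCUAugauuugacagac
mmu-miR-192-5p: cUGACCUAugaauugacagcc
mmu-miR-194-5p: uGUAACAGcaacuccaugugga
mmu-miR-215-3p: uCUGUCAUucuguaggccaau
mmu-miR-194-1-3p: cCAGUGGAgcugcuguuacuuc
mmu-miR-194-2-3p: cCAGUGGGgcugcuguuaucug

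miR-192-5p and miR-215-5p have the same seed, although they come from different chromosomes, and none of the other entries with a RefSeq sequence carries the seed of a member. A sequence was found for 177 of the 199 entries. The 5p arm of miR-194 is identical in both of its hairpins, so that miR-194-5p reads cannot be assigned to a locus, whereas the 3p arms differ and can. The bases that separate the near-identical arms are shown in capitals next, because the split of reads between loci rests on them.
mmu-miR-192-5p: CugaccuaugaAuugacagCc
mmu-miR-215-5p: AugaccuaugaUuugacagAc
mmu-miR-194-1-3p: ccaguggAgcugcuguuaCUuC
mmu-miR-194-2-3p: ccaguggGgcugcuguuaUCuG

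Counted from 1 at the 5′ end, with the base of miR-192-5p first, miR-215-5p differed by C1A, A12U and C20A. With the base of miR-194-1-3p first, miR-194-2-3p differed by A8G, C19U, U20C and C22G, and A8G lies in the seed, so these 3p arms do not share one. The methods of the study name default settings for the counting but print no number of allowed mismatches. Any exchange of reads between these arms was not tested. The remaining arms were further from each of the 176 other entries with a RefSeq sequence, with a closest entry at 9 differences for miR-215-3p and at 10 for miR-194-5p.

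The 4 hairpins lie as 2 clusters, each with a copy of Mir194 upstream of a hairpin with the UGACCUA seed, and they are shown with the mature arms in capitals to place both arms in each precursor. Their sequences are from RefSeq for GRCm38.p6.
Mir194-1: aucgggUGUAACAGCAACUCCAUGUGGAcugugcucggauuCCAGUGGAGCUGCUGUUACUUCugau
Mir215: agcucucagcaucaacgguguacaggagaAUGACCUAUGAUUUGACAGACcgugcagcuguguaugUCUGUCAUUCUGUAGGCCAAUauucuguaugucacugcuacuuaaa
Mir194-2: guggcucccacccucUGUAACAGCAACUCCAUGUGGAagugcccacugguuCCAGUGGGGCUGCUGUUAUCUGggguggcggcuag
Mir192: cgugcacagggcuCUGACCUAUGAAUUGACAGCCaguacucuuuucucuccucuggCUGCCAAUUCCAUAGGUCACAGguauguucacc

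Mir194-1 lies at chr1:185313319-185313385 and Mir215 at chr1:185313581-185313692, both on the + strand of GRCm38, with 195 nt between them. By the GENCODE annotation of that build, Mir194-1 is in an intron and Mir215 in an exon of 2010103J01Rik, an antisense RNA gene on the + strand, and both lie within an intron of Iars2, the mitochondrial isoleucyl-tRNA synthetase, on the opposite strand. Mir194-2 lies at chr19:6264643-6264728 and Mir192 at chr19:6264844-6264932, also on the + strand, with 115 nt between them. The chromosome 19 hairpins overlap no annotated gene, and the closest gene upstream, Atg2a, ends 2307 nt before Mir194-2. The 3p arm of Mir192 is drawn in its hairpin but was not analysed here.

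Depth ranged from 259811 counts in PBS replicate 1 to 3486409 in BMP4 replicate 3, and between 190 and 199 entries had a count in a library. TMM, which scales libraries on the premise that most miRNAs do not change, gave factors of 1.78 to 1.97 in PBS and 0.375 to 0.651 in BMP4, so the groups differ in scale more than the libraries within them. The 6 members held so many of the BMP4 counts that the remaining entries together made up 60.6% to 63.8% of counts in PBS and 20.4% to 22.6% in BMP4. Levels are therefore given as a percent of all counts of a library and as counts per 100 counts outside the 6 members, and the scales are compared further on. BMP4 replicate 2 had the lowest TMM factor of its group and, by both of these measures, the lowest miR-194-5p and miR-194-1-3p levels. In TMM CPM, miR-194-1-3p was lower in BMP4 replicate 3 (2959) than in BMP4 replicate 2 (3314). Results are given without BMP4 replicate 2 where they moved.

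The library share of these loci was higher in all BMP4 libraries than in any PBS library, and most of the added share lay in the arms of chromosome 1. Together the 6 arms held 36.2%, 37.4% and 39.4% of counts in PBS replicates 1 to 3 and 79.5%, 79.6% and 77.4% in BMP4 replicates 1 to 3, a difference of 41.2 percentage points. The groups did not overlap (exact permutation test, 2-sided, p = 0.1, the smallest that 3 against 3 libraries can give). The arms found only in the chromosome 1 hairpins, miR-215-5p, miR-215-3p and miR-194-1-3p, held 13.0%, 15.7% and 16.2% in PBS and 57.0%, 61.3% and 53.9% in BMP4. The arms found only in the chromosome 19 hairpins, miR-192-5p and miR-194-2-3p, held 17.1%, 17.3% and 17.5% in PBS and 12.02%, 13.1% and 13.0% in BMP4. By this measure the loci went in opposite directions, but most entries had a lower share in BMP4. With total counts as the scale, 81% of the miRNAs tested were called lower. On the log2 scale miR-192-5p (-0.44) and miR-194-2-3p (-0.87) fell less than the median entry (-1.78). Within the 6 arms alone, chromosome 1 arms went from 39.7% ± 3.28 (SD, n = 3) to 72.8% ± 3.82 (SD, n = 3) and chromosome 19 arms from 46.0% ± 1.5 to 16.1% ± 0.889, while miR-194-5p took 14.3% ± 2.48 in PBS and 11.04% ± 4.00 in BMP4, with overlapping groups (exact permutation p = 0.4).

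**Figure D1:**
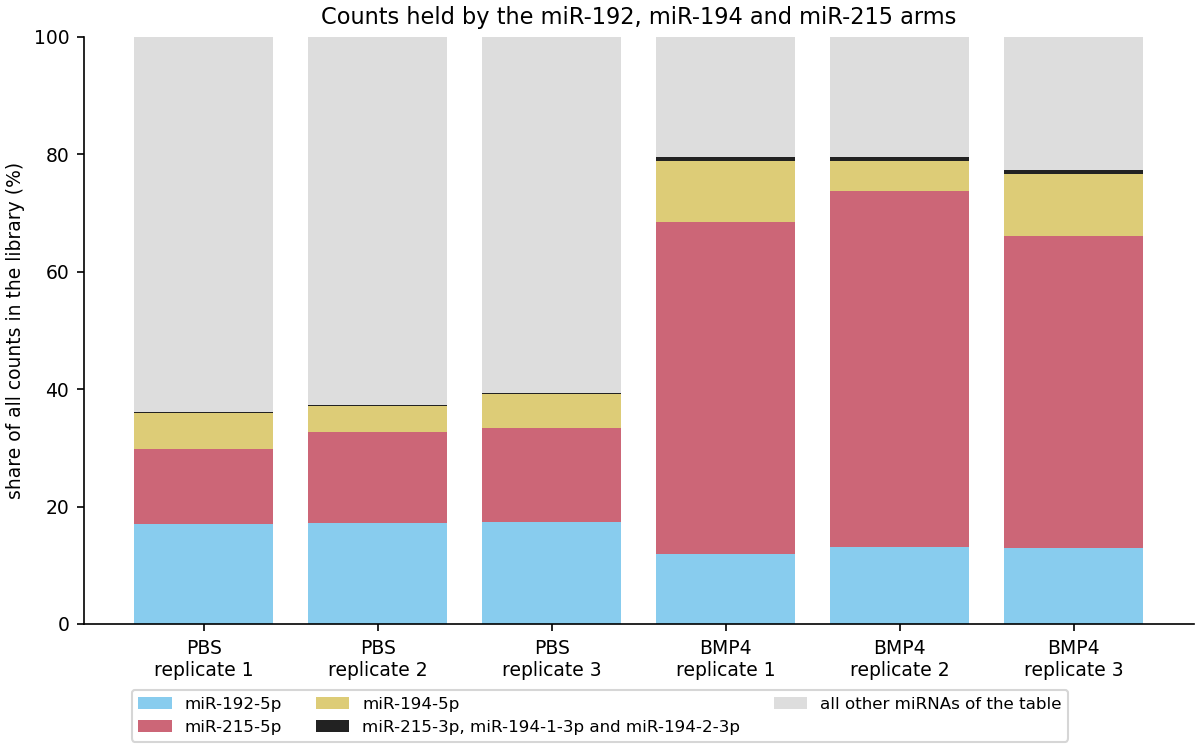
Share of all counts in each library (%, vertical axis) held by miR-192-5p, miR-215-5p, miR-194-5p, the 3 minor 3p arms and all other entries, as stacked bars for the 6 libraries. The 6 arms fill 36.2% to 39.4% of the PBS bars and 77.4% to 79.6% of the BMP4 bars, mostly through miR-215-5p, while the miR-192-5p segment is 17.1% to 17.4% in PBS and 11.99% to 13.1% in BMP4.

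miR-215-5p, the guide arm of Mir215, was the member that took most of the added share. It held 12.8%, 15.5% and 16.0% of counts in PBS and 56.4%, 60.6% and 53.2% in BMP4, and it was the second most abundant entry of every PBS library and the most abundant of every BMP4 library. Per 100 counts outside the members it stood at 20.02, 24.8 and 26.4 in PBS and at 275, 297 and 235 in BMP4. In the fit across all miRNAs, with TMM, it rose by 3.85 ± 0.34 on the log2 scale (SE, n = 3 per group, adjusted p = 2.25e-08, edgeR quasi-likelihood test), a 14.4-fold difference. On total counts it rose by 1.94, a 3.84-fold difference.

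miR-215-3p, the minor arm of the same hairpin, was also higher in every BMP4 library. It held 0.161%, 0.119% and 0.144% of counts in PBS and 0.423%, 0.570% and 0.528% in BMP4. Its rank among the entries went from between 40 and 48 in PBS to between 12 and 17 in BMP4. It rose by 3.77 ± 0.35 on the log2 scale with TMM (SE, 3 libraries a group, adjusted p = 2.97e-08) and by 1.85 on total counts. The ratio of miR-215-5p to miR-215-3p was 79.6, 131 and 111 in PBS and 133, 106 and 101 in BMP4, with overlapping groups (107 ± 25.7 against 114 ± 17.5, SD, n = 3, exact permutation p = 0.8).

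miR-194-1-3p is the arm by which the output of Mir194-1 can be read apart from that of Mir194-2. It held 0.0516%, 0.0533% and 0.0499% of counts in PBS, an even level, and 0.231%, 0.124% and 0.193% in BMP4, where replicate 2 was lowest. It rose by 3.63 ± 0.33 on the log2 scale with TMM (SE, 3 libraries a group, adjusted p = 2.25e-08), a 12.4-fold difference. On total counts it rose by 1.82, a 3.54-fold difference. The ratio of miR-215-5p to miR-194-1-3p, the guide arm of one hairpin to the minor arm of its neighbour, was 248, 291 and 320 in PBS and 244, 488 and 276 in BMP4. These groups overlapped, with a mean log2 difference of 0.17 over all libraries and of -0.14 without BMP4 replicate 2, the highest of them (exact permutation p = 0.9 over all libraries).

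miR-192-5p, the guide arm of Mir192, was the most abundant entry of every PBS library and the second of every BMP4 library. It held 17.1%, 17.2% and 17.4% of counts in PBS and 11.99%, 13.1% and 12.9% in BMP4, so its share was lower in every BMP4 library. Per 100 counts outside the members the order of the groups turned, with 26.8, 27.5 and 28.8 in PBS and 58.4, 64.3 and 57.2 in BMP4. On the TMM scale its log2 fold change was 1.46 ± 0.30 (SE, n = 3 per group, adjusted p = 0.000654), but on total counts it was -0.44 (adjusted p = 0.00678). Which of these stands for the amount per cell cannot be told from the counts, since the table holds no spike-in or cell number.

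miR-194-2-3p, the arm that reads out Mir194-2, was the least abundant member. PBS libraries gave 106, 998 and 1110 reads of it and BMP4 libraries 237, 233 and 1030, or 0.0408%, 0.0444% and 0.0522% of counts in PBS and 0.0221%, 0.0233% and 0.0295% in BMP4. Per 100 counts outside the members it stood at 0.0639, 0.0709 and 0.0861 in PBS and at 0.107, 0.114 and 0.131 in BMP4, again the opposite order. Its log2 fold change was 0.99 ± 0.35 (SE, n = 3 per group, adjusted p = 0.0396) on the TMM scale and -0.87 (adjusted p = 0.0324) on total counts. Leaving out a single library ended the TMM call in 4 cases, with an adjusted p of 0.0999 when PBS replicate 1 was dropped, 0.0980 for PBS replicate 2, 0.0766 for PBS replicate 3 and 0.0836 for BMP4 replicate 3.

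miR-194-5p, the guide arm made by both Mir194 hairpins, lay between the loci. It held 6.04%, 4.39% and 5.74% of counts in PBS and 10.4%, 5.12% and 10.5% in BMP4, and BMP4 replicate 2 fell within the PBS range (exact permutation p = 0.3). Per 100 counts outside the members the groups did not overlap, with 9.47, 7.02 and 9.47 in PBS and 50.8, 25.1 and 46.5 in BMP4. It rose by 2.48 ± 0.28 on the log2 scale with TMM (SE, 3 libraries a group, adjusted p = 5.61e-07) and by 0.69 on total counts. Its ratio to the sum of both 3p arms was 65.4, 45.0 and 56.2 in PBS and 41.1, 34.7 and 47.3 in BMP4, with overlapping groups (exact permutation p = 0.2).

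**Figure D2:**
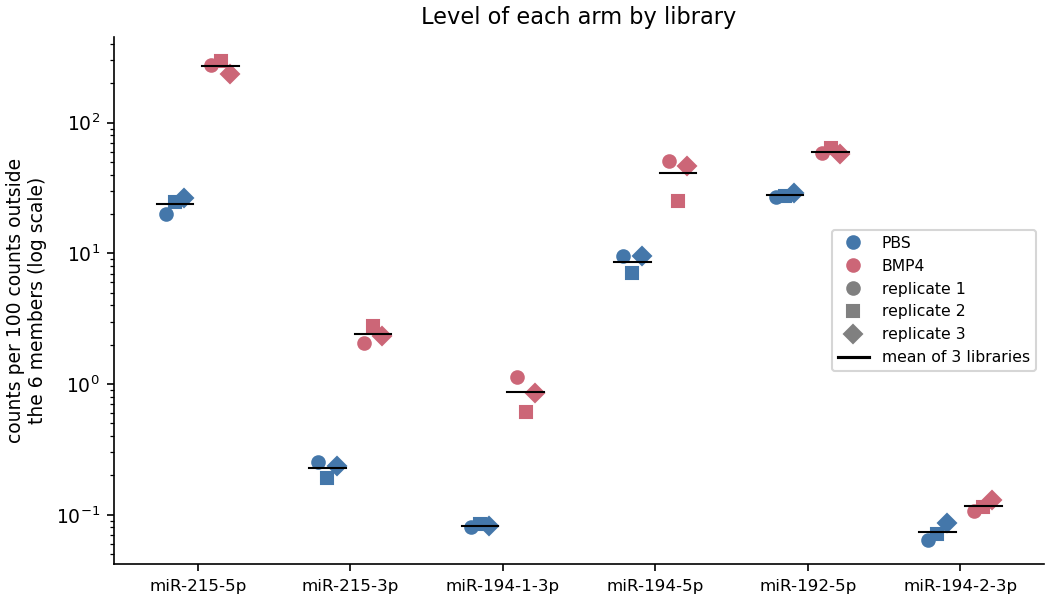
Level of each arm as counts per 100 counts outside the 6 members (vertical axis, log scale) in PBS and BMP4 libraries, with a point for each library, a shape for each replicate and a line at the mean of 3 libraries. No arm has overlapping groups on this scale, for which the share of all miRNAs without overlap was not computed. In TMM CPM, 23.6% of the miRNAs tested had all BMP4 libraries above all PBS libraries. miR-215-5p lies between 20.02 and 26.4 in PBS and between 235 and 297 in BMP4. For miR-192-5p and miR-194-2-3p the order of the groups turns when the level is taken as a percent of all counts.

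In order of mean level, PBS libraries had miR-192-5p at the top, then miR-215-5p, miR-194-5p, miR-215-3p, miR-194-1-3p and last miR-194-2-3p, and BMP4 libraries had miR-215-5p ahead of miR-192-5p with the rest unchanged in order. The mature arms are 21 or 22 nt long, so that length hardly enters the order, although each sequence may be ligated into a library with its own yield. Neighbours in this order did not overlap in percent of counts, except miR-194-1-3p (0.0499% to 0.0533%) and miR-194-2-3p (0.0408% to 0.0522%) in PBS, whose order turned in PBS replicate 3. In BMP4 these 3p arms stood at 0.124% to 0.231% and 0.0221% to 0.0295%.

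In the fit over all miRNAs, 195 of 199 entries passed the filter on low counts, all 6 members among them. On the TMM scale all 6 members were called higher in BMP4, where 17.4% of the miRNAs tested were called higher and 30.3% in either direction, whereas on total counts 4 were called higher and 2, miR-192-5p and miR-194-2-3p, lower, as were 81% of the miRNAs tested. All 6 also had BMP4 libraries above all PBS libraries in TMM CPM, as 23.6% of the miRNAs tested did. The median log2 fold change of the members was 3.05, beside 0.03 over all miRNAs. Ranked from the highest log2 fold change of the 195, miR-215-5p came at place 5, miR-215-3p at 6, miR-194-1-3p at 9, miR-194-5p at 17, miR-192-5p at 23 and miR-194-2-3p at 34.

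**Figure D3:**
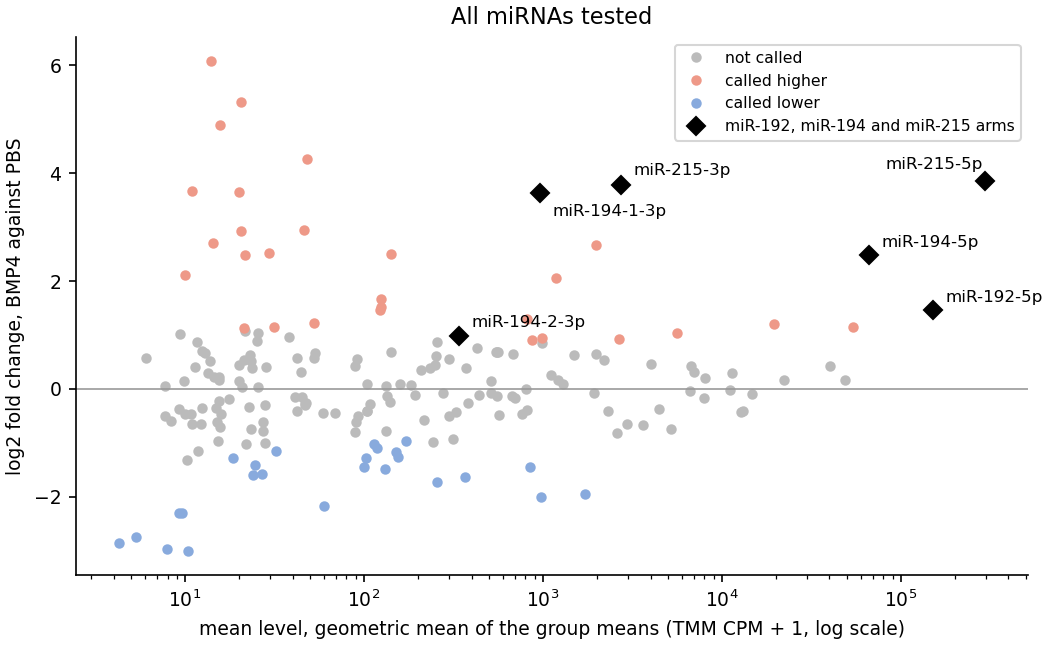
Log2 fold change of BMP4 against PBS on the TMM scale (vertical axis) against the mean level (horizontal axis, TMM CPM, log scale), with a point for each of the 195 miRNAs tested and black diamonds for the 6 arms. The arms lie above the line at 0 on this scale, from 0.99 for miR-194-2-3p to 3.85 for miR-215-5p, and miR-192-5p and miR-194-2-3p lie below it on total counts, at -0.44 and -0.87.

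The size of each difference depended on how libraries were scaled. The order among the members was the same under the 5 scales compared, but a scale shifts all rows nearly alike, so this order was largely given in advance. Leaving out a library could change it. Without BMP4 replicate 2, on the TMM scale, miR-194-1-3p (3.64) came above miR-215-5p (3.49) and miR-215-3p (3.35). With total counts as the scale, the median of all miRNAs was itself at -1.78, and 6.67% of the miRNAs tested were called higher. miR-215-5p rose by 1.94, miR-215-3p by 1.85, miR-194-1-3p by 1.82 and miR-194-5p by 0.69 (adjusted p = 0.0201) on the log2 scale under that setting. Taken relative to the median of all miRNAs, miR-192-5p stood 1.34 and miR-194-2-3p 0.91 above it with total counts, and 1.42 and 0.96 above it with TMM. With the counts outside the members as the scale, which removes the members' own share, the log2 fold change was 3.50 for miR-215-5p, 1.12 for miR-192-5p (adjusted p = 4.65e-05) and 0.67 for miR-194-2-3p (adjusted p = 0.172). With median-of-ratios factors the values were 3.83 for miR-215-5p, 1.43 for miR-192-5p and 0.97 for miR-194-2-3p, close to those with TMM.

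**Figure D4:**
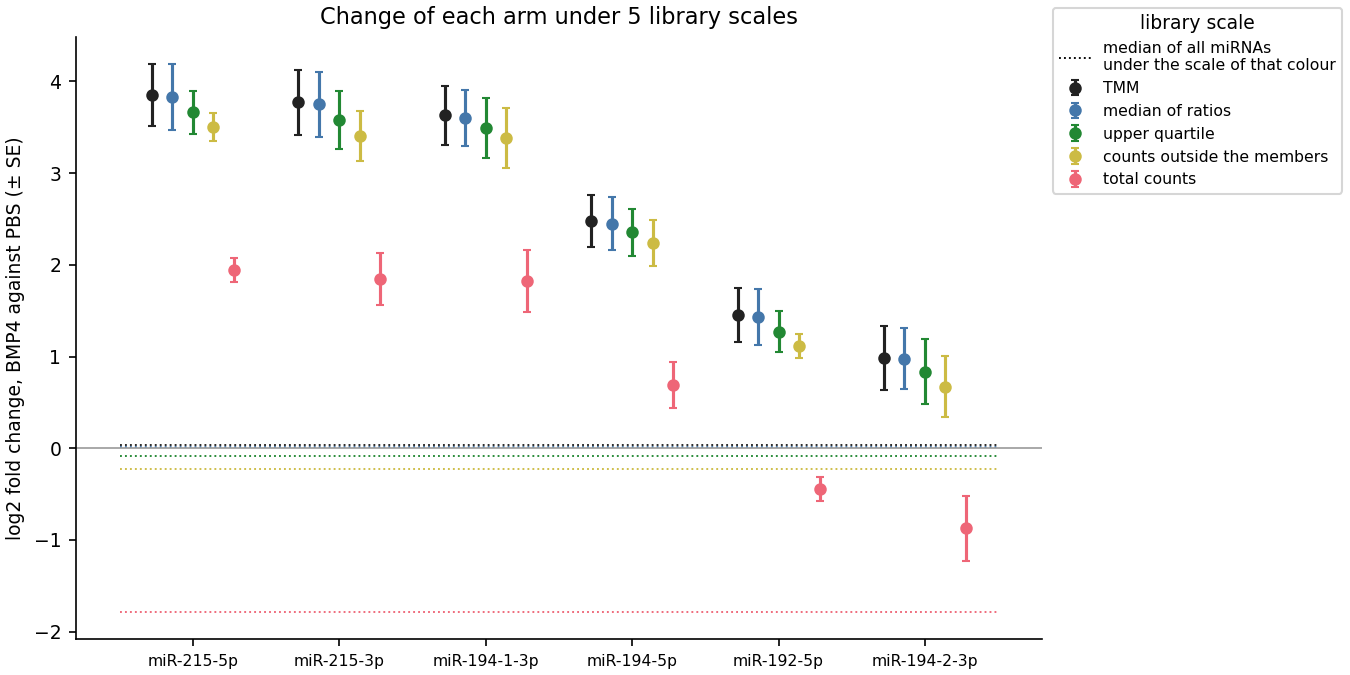
Log2 fold change of each arm, BMP4 against PBS (vertical axis, points with SE bars), under 5 library scales, with dotted lines at the median of all miRNAs under each scale. miR-215-5p, miR-215-3p, miR-194-1-3p and miR-194-5p lie above 0 under all 5 scales, while miR-192-5p and miR-194-2-3p lie above 0 under 4 scales and at -0.44 and -0.87 with total counts, where the median line is at -1.78.

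Ratios of counts within a library do not depend on its scale, and they separated the loci. The ratio of miR-215-5p to miR-192-5p, the arms with a shared seed, was 0.748, 0.902 and 0.916 in PBS and 4.70, 4.62 and 4.11 in BMP4. Every PBS library thus had less miR-215-5p than miR-192-5p and every BMP4 library more, with a mean log2 difference of 2.39. The ratio of miR-194-1-3p to miR-194-2-3p, the same arm of the Mir194 copies, was 1.26, 1.20 and 0.956 in PBS and 10.5, 5.32 and 6.52 in BMP4, a mean log2 difference of 2.66. For both ratios the groups did not overlap and the exact 2-sided permutation test gave p = 0.1, the smallest possible. The ratio of miR-192-5p to miR-194-2-3p within the chromosome 19 cluster was 419, 388 and 334 in PBS and 544, 562 and 438 in BMP4. It was 1.35-fold higher in BMP4, without overlap (exact permutation p = 0.1), with a mean log2 difference of 0.43.

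Seen as a split between loci, miR-194-1-3p made up 55.8% (95% Wilson interval 49.5% to 62.0%, of 240 reads), 54.6% (52.5% to 56.6%, of 2197) and 48.9% (46.8% to 51.0%, of 2171) of the miR-194 3p reads in PBS replicates 1 to 3. In BMP4 it made up 91.3% (90.2% to 92.3%, of 2721), 84.2% (82.2% to 86.0%, of 1473) and 86.7% (85.9% to 87.4%, of 7746). Intervals of the groups lay far apart. Those of libraries within PBS and within BMP4 also did not all overlap, so replicates of both groups differed by more than the counting error of independent reads. The share of miR-215-5p in the reads with the UGACCUA seed, from the 2 arms that hold it, was 42.8%, 47.4% and 47.8% in PBS and 82.5%, 82.2% and 80.4% in BMP4. Both arms together went from 32.0% ± 1.88 (SD, n = 3) to 69.4% ± 3.92 (SD, n = 3) of all counts.

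**Figure D5:**
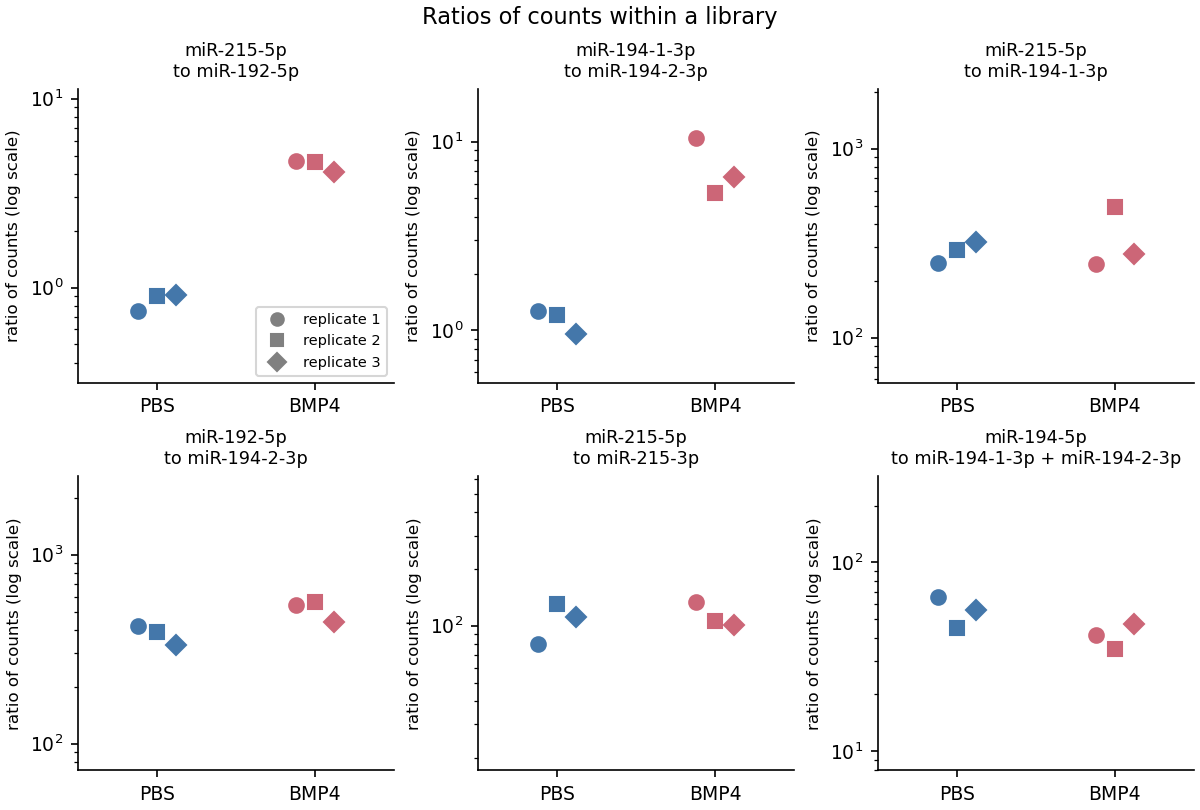
Ratios of counts of 2 arms, or of an arm and a sum of arms, within a library (vertical axes, log scale, each of the same span) for PBS and BMP4, with a point for each library and a shape for each replicate. The ratios between loci, miR-215-5p to miR-192-5p and miR-194-1-3p to miR-194-2-3p, go from 0.748 to 1.26 in PBS to 4.11 to 10.5 in BMP4. The groups of the other 4 ratios lie closer together. Among these, only miR-192-5p to miR-194-2-3p has groups without overlap, at 334 to 419 in PBS and 438 to 562 in BMP4.

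The difference between loci was also tested across all miRNAs by taking the count of miR-192-5p as the scale of each library, so that a fold change reads as the change of an arm relative to that of miR-192-5p. miR-215-5p was higher by 2.39 ± 0.16 on the log2 scale (SE, n = 3 per group, adjusted p = 1.57e-06 over all other miRNAs tested), a 5.23-fold difference. miR-215-3p was higher by 2.28 ± 0.27 (adjusted p = 0.000154), miR-194-1-3p by 2.28 ± 0.34 (adjusted p = 0.00035) and miR-194-5p by 1.14 ± 0.28 (adjusted p = 0.00526). miR-194-2-3p, which shares a cluster with miR-192-5p, had a value of -0.43 ± 0.33 (adjusted p = 0.235). Thus 4 of 5 arms were called higher, beside 7.73% of the miRNAs tested, and the median of all miRNAs was -1.33 on this scale. Those 4 calls held in each fit that left out a library, with the replicate block and without the filter.

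In BMP4 replicate 2 miR-194-5p stood lower against miR-215-5p and miR-192-5p than in the other BMP4 libraries, a pattern chosen after its values were seen and therefore given without a test. The ratio of miR-215-5p to miR-194-5p was 2.11, 3.54 and 2.78 in PBS and 5.41, 11.9 and 5.06 in BMP4. The ratio of miR-192-5p to miR-194-5p was 2.83, 3.92 and 3.04 in PBS and 1.15, 2.56 and 1.23 in BMP4. In each case BMP4 replicate 2 was the highest library of its group, and replicate 2 was also the highest of the PBS group. Without BMP4 replicate 2 the log2 fold change with TMM was 3.49 for miR-215-5p, 1.12 for miR-192-5p, 2.56 for miR-194-5p and 3.64 for miR-194-1-3p, each still called.

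The entries whose profile over the 6 libraries was most like that of miR-215-5p, by Pearson r of log2(TMM CPM + 1) over 189 entries compared, were miR-152-3p (0.995), miR-3470a (0.993), miR-690 (0.992), miR-27a-5p (0.992) and miR-22-3p (0.982). With 2 groups of 3 libraries and a shared scale, such an r mostly orders entries by the group difference, and it is a description only. The most abundant of them, miR-22-3p, rose by 2.68 ± 0.32 on the log2 scale with TMM (SE, 3 libraries a group, adjusted p = 7.84e-07). The counts of miR-3470a were 0, 6 and 6 without BMP4 and 61, 47 and 161 with it. The entries most like miR-192-5p were miR-152-3p (0.986), miR-203-3p (0.985), miR-27a-5p (0.979), miR-5099 (0.979) and miR-200a-5p (0.973). Among the members by the same measure, miR-215-5p had r = 0.992 with miR-215-3p and 0.985 with miR-194-1-3p, and miR-194-5p had 0.990 with miR-194-1-3p and 0.846 with miR-194-2-3p. miR-192-5p had 0.976 with miR-215-5p and with miR-215-3p on the other chromosome and 0.970 with miR-194-2-3p of its own cluster. The error of these r was not estimated, and whether they follow the locus was not tested.

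Other miRNAs of gut epithelium were read from the same fit. Of a list of 14, with the miR-200 family, the enteroendocrine miR-375 and others, 12 were in the table, of which 2 were called higher and 0 lower on the TMM scale, where 17.4% and 12.8% of all miRNAs tested were. The median log2 fold change of the list was 0.37 beside 0.03 over all miRNAs. No list member was lower at an unadjusted p under 0.05 either, by edgeR or by DESeq2 (0 of 12 each). On total counts 0 were called higher and 12 lower, counts that were the same at an unadjusted p under 0.05, with a median of -1.40 beside -1.78. Since 81% of all miRNAs tested were called lower on total counts, and the share called higher with TMM was near that of the list, these counts set the list apart in neither direction. Those called higher with TMM were miR-203-3p, an epithelial miRNA best known from the epidermis (1.03 ± 0.29, SE, adjusted p = 0.0104), and miR-378a-3p, which lies in an intron of Ppargc1b (1.21 ± 0.28, adjusted p = 0.0021). Of the miR-200 family, which targets the transcription factors Zeb1 and Zeb2, the TMM log2 fold change was 0.16 for miR-200b-3p, 0.31 for miR-200a-3p, 0.08 for miR-429-3p, 0.45 for miR-141-3p and -0.43 for miR-200c-3p. It was -0.65 for miR-375-3p, 0.65 for miR-31-5p, which is known from mouse intestinal stem cells, 0.69 for miR-21a-5p, 0.43 for miR-802-5p and -0.47 for miR-802-3p. None of these 10 passed the test, with adjusted p between 0.144 for miR-21a-5p and 0.854 for miR-429-3p (edgeR).

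The label of intestinal epithelium was checked against markers. All 6 epithelial markers listed, of which miR-192-5p, miR-194-5p and miR-215-5p are members, were in the table and held 49.0% to 50.8% of counts in PBS and 80.4% to 82.5% in BMP4. The 3 that are no member, miR-200b-3p, miR-200c-3p and miR-375-3p, held 13.2%, 11.9% and 11.7% in PBS and 3.68%, 2.84% and 3.75% in BMP4, so the added share of the list lay in the members. On total counts their log2 fold changes were -1.70, -2.18 and -2.56, beside the median of -1.78 over all miRNAs, and none of them was called with TMM. Markers of other lineages that had a row were at trace levels. A marker without a row may have been left out of the table, so its level is not known. Of 9 stromal and muscle markers only miR-1a-3p was in the table, at 0.00231% to 0.00414% of counts in PBS and 0.00121% to 0.00195% in BMP4. The only immune marker in the table of 5 listed, miR-155-5p, held 0.00169% to 0.00346% in PBS and 0.000372% to 0.000601% in BMP4. The endothelial marker miR-126a-3p, 1 of 2 listed, held 0.0100% to 0.0145% in PBS and 0.00220% to 0.00318% in BMP4. None of the 3 erythroid markers was in the table, and the neuronal miR-9-5p had at most 31 counts in a library and was not tested. The liver marker miR-122-5p was counted 5, 14 and 13 times in PBS libraries and 18, 19 and 29 times in BMP4 libraries, and its log2 fold change was 2.71 ± 0.57 (SE, adjusted p = 0.000895) with TMM and 0.83 (adjusted p = 0.191) with total counts.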

How the data were processed

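miRNA-seq of 3 PBS and 3 BMP4 organoid libraries was analysed from the table of raw read counts per mature miRNA that the authors deposited. RNA was isolated with a mirVana kit and libraries were made with the NEBNext Small RNA kit. According to the methods of the study, the authors trimmed reads with bbmap and kept lengths of 15 to 27 nt. They counted them on miRBase entries with the mapper and quantifier scripts of miRDeep2, the quantifier at its defaults. Neither the build of the genome nor the release of miRBase is given in the sources used here. The submitters' processing notes also name edgeR.

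Groups were taken from the treatment label. Counts were tested with the edgeR (4.0.16, R 4.3.3) quasi-likelihood F test after TMM scaling and filterByExpr, with Benjamini-Hochberg adjustment over the 195 miRNAs tested and a threshold of 0.05. The same fit with the count of miR-192-5p as library size, and that row removed, tested the others. Single ratios and shares were compared by exact 2-sided permutation tests (scipy 1.17.1, 20 arrangements), for 6 ratios. Wilson intervals (95%) cover only the counting error of reads taken as independent. Reads without molecular identifiers are not independent molecules, so the intervals may be too narrow. Library totals were 259811 to 3486409, and the shallowest, PBS replicate 1, had 106 counts of the least abundant member. Alternatives were other library scales, no filter, DESeq2 (1.42.0), a replicate block and leaving out each library. The edgeR procedure was run on simulated counts in which random rows were changed by a known fold, up or down. These did not imitate the shift in composition seen here, so they are no test of the scaling. Sequences and their differences were read from RefSeq tables of GRCm38.p6, and gene positions from GENCODE on the same build. No libraries within a group were alike within sampling noise (chi-square per degree of freedom 49.5 to 330), so over all miRNAs the scatter between libraries exceeded the counting error of independent reads.

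The members, lists and tests were chosen with earlier results of these data known, and they are no independent support for any pattern. Named miRNAs were the 6 members, the 5 entries with a mean count of 10 or more that were most like miR-215-5p and the 5 most like miR-192-5p, other entries with a member's seed (none), and the measured miRNAs of the gut epithelium and cell type lists. Patterns named after their values were seen are marked as such.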

Additional observations from a re-analysis of the deposited data

How the results depend on the processing

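The calls of miR-215-5p, miR-215-3p, miR-194-1-3p and miR-194-5p kept their direction and side of the threshold under every alternative run. On total counts miR-192-5p went to -0.44 and miR-194-2-3p to -0.87, and 171 of 195 miRNAs were called, 13 higher and 158 lower, against 59, 34 and 25 with TMM. The gut epithelium list then had 0 higher and 12 lower. miR-194-2-3p was no longer called with upper quartile scaling (0.83, adjusted p = 0.0766), with the counts outside the members as the scale (0.67, adjusted p = 0.172) or with the replicate block (0.97, adjusted p = 0.0545), and leaving out a library moved it from 0.76 to 1.17. Leaving out a library moved the number of miRNAs called from 35 (without PBS replicate 3) to 71 (without BMP4 replicate 2), those higher from 24 to 38 and those lower from 11 to 33, the latter being 16 when PBS replicate 1 or PBS replicate 2 was dropped, 11 for PBS replicate 3 and 13 for BMP4 replicate 3. The ratio of miR-215-5p to miR-194-1-3p, with a log2 difference of 0.17, was at -0.04 on counts summed over libraries. Whether replicate numbers pair the samples could not be settled, since correlations of deviations from means of 3 libraries were all small. Deviations of same-numbered libraries correlated at 0.0429, 0.0942 and -0.0128. PBS replicates 1 and 2 correlated best with the BMP4 library of the same number, and PBS replicate 3 with BMP4 replicate 1 (0.0966). With the replicate block 49 miRNAs were called. Over all miRNAs, libraries of a group scattered by more than the sampling noise of independent reads, and how far depth limits single members was not tested.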
